A study of Ricinus communis with 6 samples.

Results

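The 100 most abundant transcripts of the castor bean (Ricinus communis) internode were described, chosen by their measured level. They are the 100 rows with the highest mean FPKM over all 6 libraries, of 18875 rows in the table. FPKM counts the fragments of a transcript, divided by its length and by the total of fragments mapped in that library. The question was how much of each library these transcripts held and how far they differed between varieties and between libraries. Libraries D1, D2 and D3 came from the dwarf (short-stalk) variety 071113. The high-stalk variety Zhuansihao, whose genotype label reads Zhansihao, gave libraries L1, L2 and L3. All plants grew in the field and internodes, the fifth of the main stem by the study's methods, were taken in fast growth at 8 to 10 leaves, with approximately 6 plants dissected. The labels name no transgene and no treatment for either variety. Each variety stands for 1 genotype, so a difference between them cannot be assigned to stem height alone. The study's methods call the libraries biological replicates, but no source used here says which plants went into which, and p-values measure the spread between these libraries.

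FPKM is a relative measure. When a few transcripts take a larger share of a library, the values of all others in it fall, and fewer cells of a type cannot be told apart from less RNA per cell in tissue of this kind. A growing internode holds elongating cortex and pith, xylem, phloem, cambium and epidermis, and its most abundant mRNAs commonly encode proteins needed in bulk by many cells, such as water channels, cytoskeletal proteins and chaperones. Aquaporins let water cross membranes in expanding plant cells, actin filaments carry vesicle transport, and chaperones of the HSP70 family fold proteins.

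All 100 members matched a protein-coding gene of the castor RefSeq table (assembly ASM1957865v1), but only 4 have a name there or in the study. These are the aquaporins Pip2-1 (LOC8283688), of the plasma membrane type, and Tip1-1 (LOC8283972), of the vacuolar membrane type, the actin gene ACT (LOC8273907) and HSP7C (LOC8265956), an HSP70 chaperone. The others are given by identifier, without a role. Marker lists for xylem, epidermis, green tissue and dividing cells matched 0 rows by name, so of the listed markers only the phloem sucrose carrier SUT1 (LOC8262746) was looked up here. SUT1 ranked 238 by mean level and is not a member. It had 344, 73.6 and 296 FPKM in D1, D2 and D3, against 153, 406 and 245 FPKM in L1, L2 and L3. Another aquaporin, Pip1-1 (LOC8270441), ranked 260 and also lay outside.

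D2 stood apart from the other dwarf libraries, and the study left it out. Over the members, log2(FPKM + 1) had a Pearson correlation of 0.95 between D1 and D3, 0.19 between D1 and D2 and 0.27 between D2 and D3. D2 and L1 correlated at 0.79. Within Zhuansihao the values were 0.72 for L1 and L2, 0.80 for L1 and L3 and 0.86 for L2 and L3. These are descriptions across 100 transcripts that share libraries and carry no test. Choosing members by their mean over these libraries narrows the range of levels, which can lower such correlations. Correlations over other rows were not computed. In other rows with at least 1 FPKM in at least 2 libraries, the median size of the difference in log2(FPKM + 1) was 0.53 for D1 and D2. It was 0.14 for D1 and D3 and 0.23 for D2 and L1. Only 2 members differed at least 2-fold between D1 and D3, against 35 between D1 and D2 and 7 between D2 and L1. Results below are therefore given for D1 and D3 and for all 3 dwarf libraries. FPKM holds no read number, but ratios of low values put the depth of the libraries between 0.868 and 1.08 of that of D1, and their FPKM sums lay between 585381 and 600050. The lowest value of any member in any library was 46.2 FPKM, so all members were seen in all libraries.

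The members held between 11.7% and 14.7% of each library's summed FPKM. The share was 14.7%, 11.7% and 14.0% in D1, D2 and D3, against 12.8%, 14.4% and 13.4% in L1, L2 and L3. The dwarf libraries thus had both the highest and the lowest share, and the groups overlapped. The mean share was 13.5 ± 1.59% in 071113 and 13.5 ± 0.843% in Zhuansihao (SD, n = 3 each), a difference of -0.0855 percentage points (exact two-sided permutation test, p = 1.0, where 0.10 is the smallest p that 3 against 3 can give). Without D2, the dwarf mean was 14.4 ± 0.491% (SD, n = 2) and the difference 0.809 points (exact two-sided permutation test, p = 0.40, smallest possible 0.20). Since the members were chosen on these levels, the height of the share itself is a description.

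**Figure D1:**
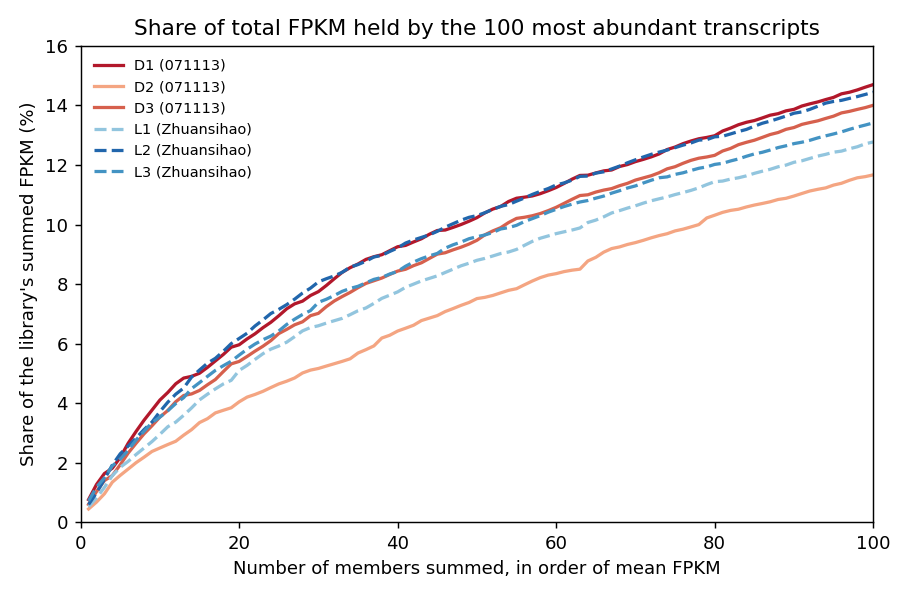
Cumulative share of each library's summed FPKM (%) against the number of members added in order of mean FPKM, solid lines for 071113 and dashed lines for Zhuansihao. The D2 line ended lowest at 11.7% and the D1 line highest at 14.7%, with the Zhuansihao lines between them.

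Most of the spread in the share came from the upper ranks. The 25 highest members held 6.94%, 4.65% and 6.34% in D1, D2 and D3, against 5.92%, 7.15% and 6.42% in L1, L2 and L3. D2 lay 2.29 points below D1 there. Over ranks 76 to 100 the shares were 2.10%, 1.88% and 2.06% in the dwarf libraries, against 1.77%, 1.86% and 1.73% in Zhuansihao. All 3 dwarf libraries were above all 3 Zhuansihao libraries, but without HSP7C, at rank 81, D2 would lie below L2. HSP7C held 0.0950% of D2 and 0.0182% of L2, and its place among the 100 rests on the dwarf libraries. No transcript dominated a library. The highest share of a single member was 0.761%, that of LOC8280459 in D1, and 1339 to 1551 rows were needed to reach 50% of a library's FPKM.

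Members contributed to the difference in share with either sign. Between D1 and D3 and Zhuansihao, 59 members held a larger share in the dwarf libraries and added 2.79 points, and 41 held a smaller share and took away 1.98 points, a split by sign that is given as a description. The largest single contributions were -0.255 points from LOC8267128, -0.251 points from LOC8281237 and 0.182 points from LOC8282968, a member of the top 10. HSP7C added 0.127 points although it ranked only 81.

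Levels fell steeply over the first ranks and slowly after them. The mean over 6 libraries was 3589 FPKM at rank 1 and 424 FPKM at rank 100, a ratio of 8.47, and 23 members were above 1000 FPKM. At the lower edge, LOC8286264 (425.3 FPKM) and LOC8258129 (423.7 FPKM) were just inside, and LOC8286799 (422.2 FPKM) and LOC8286584 (421.7 FPKM) just outside, so membership around rank 100 rests on differences of about 1 FPKM. Ranked by the median in place of the mean, 94 of the 100 rows were the same.

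The most abundant transcript, LOC8280459, had 4525, 2671 and 3494 FPKM in D1, D2 and D3, against 3062, 3548 and 4235 FPKM in L1, L2 and L3. LOC8287754, the next, had 3007, 1389 and 2535 FPKM in the dwarf libraries, against 1730, 2338 and 2750 FPKM in Zhuansihao. In both, D2 and L1 were the lowest libraries and the varieties overlapped. LOC8278734, at rank 3, had 2198, 1672 and 2175 FPKM in D1, D2 and D3, against 2052, 2689 and 1848 FPKM in L1, L2 and L3. LOC8280459 was the highest member in each of the 6 libraries. LOC8278734 was above LOC8287754 in D2, L1 and L2 and below it in the others. The varieties overlapped in LOC8278734 as well.

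LOC8267128, at rank 4, departed from this picture. It had 1068, 2349 and 985 FPKM in D1, D2 and D3, against 2329, 2890 and 2391 FPKM in L1, L2 and L3. D1 and D3 were below every Zhuansihao library, while D2 was within their range. It was the only one of the top 10 called in limma with D1 and D3 against Zhuansihao (limma log2 fold change -1.30 ± 0.28 SE, adjusted p = 0.0461). This call ended in 2 of 9 other settings and when L1, L2 or L3 was left out (limma adjusted p = 0.066 to 0.0903). Its log2 fold change was -1.36 without D1 and -1.24 without D3.

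The members at ranks 5 to 10 were LOC8264458, LOC8282968, LOC8268283, LOC8268232, LOC8278081 and LOC8278746. Their means were between 1511 and 1816 FPKM. D2 had the lowest value in 7 of the 10 leading members and D1 the highest in 6. LOC8282968 had 2839, 1273 and 2292 FPKM in the dwarf libraries, against 1170, 1543 and 1767 FPKM in Zhuansihao, so D1 and D3 were above all Zhuansihao libraries. It did not pass the test (limma log2 fold change 0.79 ± 0.33 SE, adjusted p = 0.16). Among these 6, LOC8278746 had the widest range relative to its lowest value, with 2013, 701 and 1715 FPKM in D1, D2 and D3, against 1426, 2100 and 1110 FPKM in L1, L2 and L3.

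**Figure D2:**
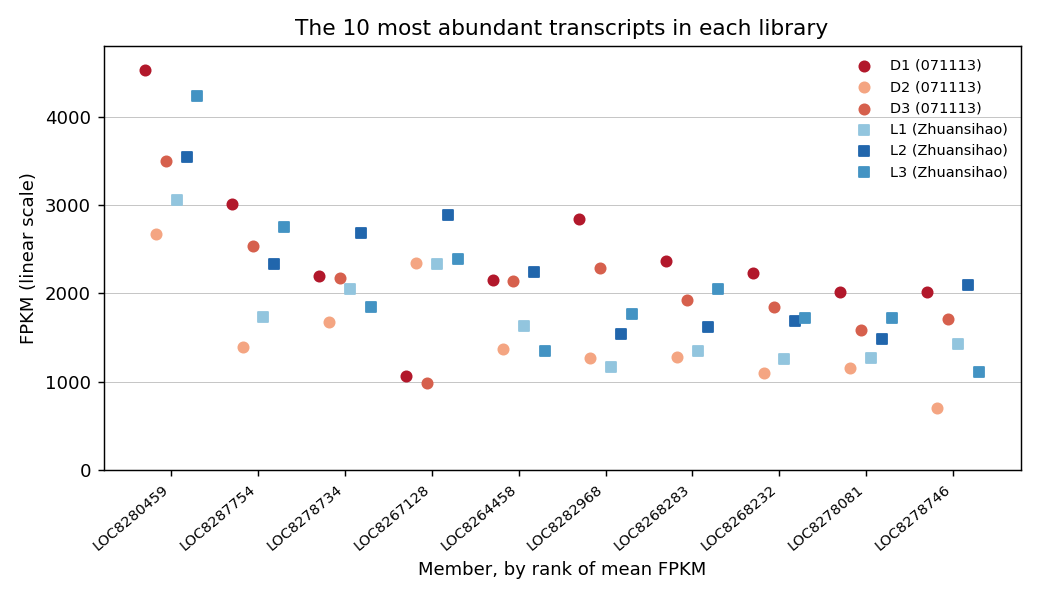
FPKM (linear axis) of the 10 most abundant transcripts, with 1 point per library, circles for 071113 and squares for Zhuansihao. D2 was the lowest point in 7 of 10, and LOC8267128 was the one with D1 and D3 well below the rest (1068 and 985 FPKM).

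Measures of spread between libraries set the members on different sides of other expressed rows. The coefficient of variation over 6 libraries had a median of 26.7% (range 5.59% to 122%), against 23.1% for the other rows among the 1000 highest and 24.4% for all other rows with at least 1 FPKM in at least 2 libraries. It exceeded 50% in 12 members, or 12.0%, against 23.5% of all other rows. In all 15 library pairs, the median size of the difference in log2(FPKM + 1) was larger in the members than in other rows. It was 0.82 against 0.53 for D1 and D2 and 0.31 against 0.21 for L2 and L3. The added 1 shrinks differences in rows near 1 FPKM and hardly those of the members. How far this accounts for the gap was not tested. The highest library was at least 2-fold above the lowest in 49 members, or 49.0%. This was near the 46.4% of all other rows and the 43.1% of the other rows among the 1000 highest.

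The steadiest members were LOC8264152, LOC8265128 and LOC107262154. LOC8264152 had 1142, 1228 and 1231 FPKM in D1, D2 and D3, against 1347, 1231 and 1183 FPKM in L1, L2 and L3, a coefficient of variation of 5.59%. LOC8265128 followed with 8.91% and LOC107262154 with 9.26%. Both varieties overlapped in all 3 of these members, and none passed the test.

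The members that varied most were LOC8281236, LOC8273814 and HSP7C. LOC8281236 had 46.2, 1658 and 150 FPKM in D1, D2 and D3, against 1073, 58.0 and 296 FPKM in L1, L2 and L3. It ranked 4 within D2 and 3064 within D1, so its place among the 100 rests on D2 and L1. LOC8273814 had 265, 1340 and 241 FPKM in the dwarf libraries, against 634, 98.1 and 274 FPKM in Zhuansihao, and was again highest in D2 and next highest in L1. In neither could a variety difference be told from the spread within varieties (adjusted p = 0.396 and 0.983 in limma).

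**Figure D3:**
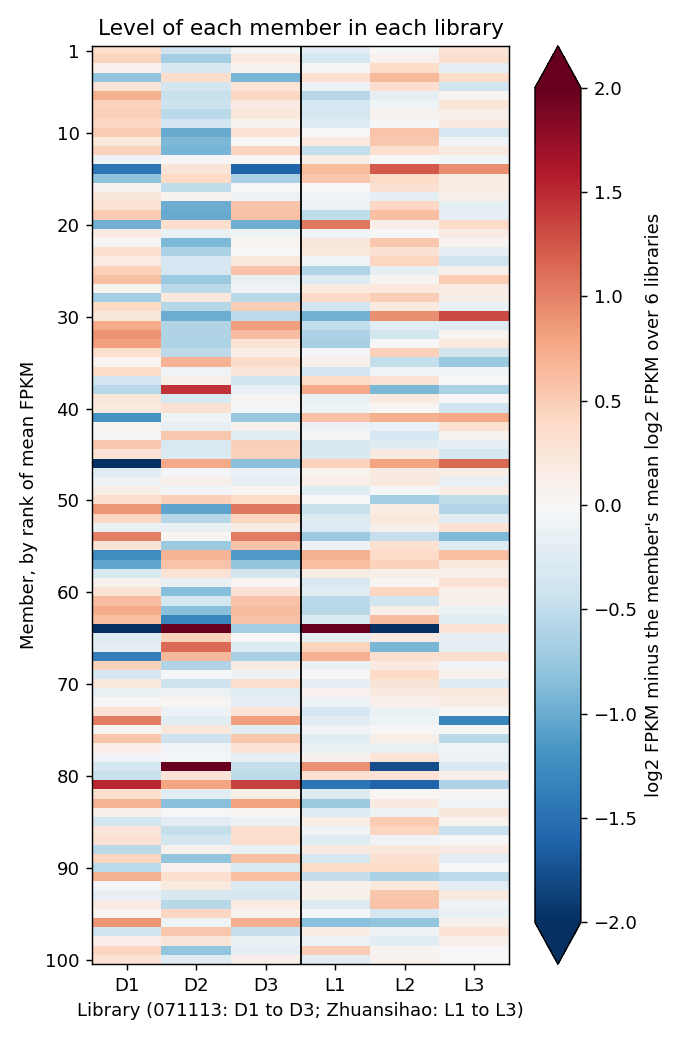
Level of each of the 100 members (rows, by rank of mean FPKM) in each library (columns, 071113 left of the line and Zhuansihao right of it), as log2 FPKM minus that member's mean log2 FPKM over the 6 libraries, with colours capped at 2 either way. Columns D1 and D3 look alike (correlation 0.95) and D2 resembles L1 (0.79) more than it resembles D1 (0.19).

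D2 was the lowest library in 38 members, against 26.1% of all 16236 rows that passed the filter, while it was the highest in 14, against 28.9%. D1 and L2 were each the highest in 26 members, against 17.8% and 15.4% of all rows. In the principal components of the members, the first (61.1% of the variance) placed D1 at -5.99 and D3 at -4.30, D2 at 5.12, and L1, L2 and L3 at 4.11, -0.56 and 1.62. The leading direction of variation therefore set D1 and D3 against D2 and L1 rather than variety against variety. The second component (28.0%) placed D1, D2 and D3 at -1.50, -3.66 and -1.88, against 0.21, 4.72 and 2.12 for L1, L2 and L3, and all dwarf libraries were lower on it.

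Counted as patterns without overlap, the split of D2 and L1 from the rest differed from all rows in its direction. These counts do not place it ahead of the split of D1 and D3 from Zhuansihao, which had 31 members above and 22 below. D2 and L1 were both below the other 4 libraries in 31 members (16.4% of all rows), and both above them in 9 (26.8% of all rows). The 31 included 6 of the 10 leading members, and together they held 6.58%, 3.28% and 5.87% of D1, D2 and D3, against 3.77%, 5.13% and 5.35% of L1, L2 and L3. The 9 held 0.477%, 1.67% and 0.555% of the dwarf libraries, against 1.35%, 0.783% and 0.858% of Zhuansihao, and Tip1-1 was among them. The direction of these sums is set by how the members were grouped.

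L2 and L3 were both above the other 4 libraries in 11 members (7.35% of all rows) and both below them in 5 (6.96% of all rows), Pip2-1 among the 5. D1 and D3 were above every Zhuansihao library in 31 members (25.1% of all rows) and below every one in 22 (33.0% of all rows). With D2 included, all 3 dwarf libraries were above Zhuansihao in 5 members (7.44% of all rows) and below it in 9 (7.41% of all rows). The counts for all 3 dwarf libraries lie close to the background.

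In limma on log2(FPKM + 1) with D1 and D3 against Zhuansihao, 6 of 100 members were up-regulated and 11 were down-regulated in the dwarf at an adjusted p under 0.05. Of 15925 rows tested, 6.96% were higher and 6.17% lower, so the members were called about as often as any row in the upper direction and more often in the lower one, a difference that was not tested. At an unadjusted p under 0.05 there were 16 members higher, against 15.8% of all rows tested, and 17 lower, against 19.3%. The median log2 fold change of the members was 0.12, against -0.06 over all rows tested, and the median size 0.39 against 0.33. With the fold threshold of the study's methods added (2 or more on the log2 scale, either way), 3 members were called, 1 higher (HSP7C) and 2 lower (LOC8281237 and LOC8288079), and 2.53% of all rows tested passed both thresholds in either direction.

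With D2 added, limma over all 6 libraries called 0 members (0.0123% of 16236 rows were called). At an unadjusted p under 0.05 there were 5 members higher, against 5.1% of all rows tested, and 3 lower, against 4.2%. The lowest adjusted p of a member was 0.208, that of HSP7C. On the log2 scale, D2 lay nearer to the Zhuansihao mean than to that of D1 and D3 in 15 of the 17 called members, as in 86.7% of the 2090 called rows. The calls below therefore describe D1 and D3. Leaving out D1 or D3 leaves 1 dwarf library and no spread within 071113, so only fold changes are given for it. All 17 called members then kept the direction of their fold change. The log2 fold change of HSP7C was 2.59 without D1 and 2.73 without D3, while that of LOC8288079 was -1.62 and -3.09.

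**Figure D4:**
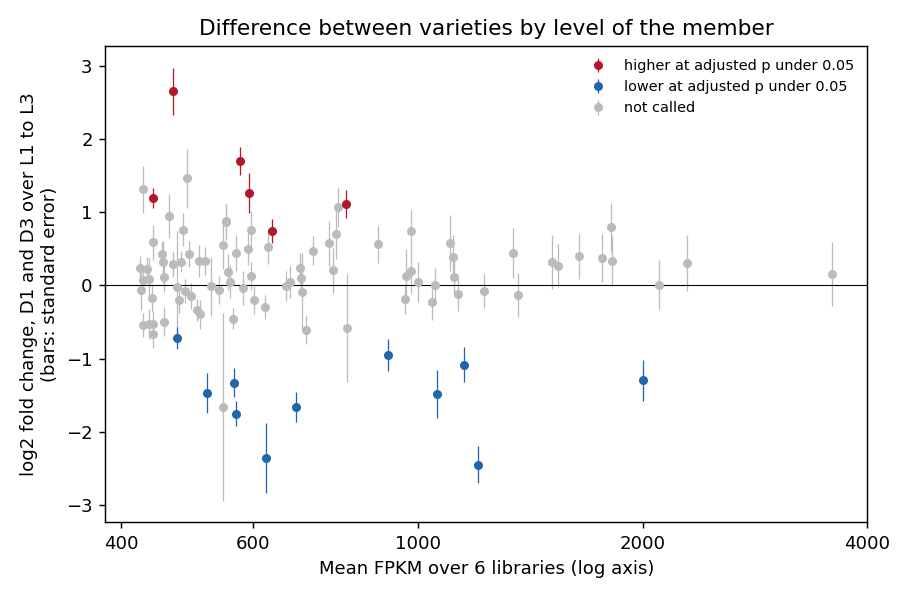
Log2 fold change of D1 and D3 over L1 to L3 (points, with standard errors as bars) against mean FPKM over 6 libraries (log axis) for the 100 members, with the 6 called higher in red and the 11 called lower in blue. Of the 17, only LOC8267128 is among the top 10, and the largest rise, HSP7C, is at 469 FPKM.

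HSP7C (LOC8265956) had the largest rise. It had 944, 570 and 857 FPKM in D1, D2 and D3, against 122, 109 and 215 FPKM in L1, L2 and L3. All 3 dwarf libraries were above all 3 Zhuansihao libraries, with D2 the lowest of the dwarf ones. The mean was 900 ± 61.2 FPKM in D1 and D3 (SD, n = 2) and 149 ± 57.9 FPKM in Zhuansihao (SD, n = 3), and limma gave a log2 fold change of 2.66 ± 0.32 (standard error) at an adjusted p of 0.0163. With D2 added the log2 fold change was 2.44 and the limma adjusted p 0.208. It ranked 31 within D1 and within D3, against 815, 1010 and 339 within L1, L2 and L3. HSP7C is therefore among the 100 only through the dwarf libraries, and a member of this kind had to differ between varieties.

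LOC8266073 and LOC8271848 also had all dwarf libraries above Zhuansihao. LOC8266073 had 999, 515 and 1016 FPKM in D1, D2 and D3, against 303, 362 and 269 FPKM in L1, L2 and L3 (limma log2 fold change 1.70 ± 0.19 SE, adjusted p = 0.0148). LOC8271848 had 669, 509 and 621 FPKM in the dwarf libraries, against 296, 265 and 284 FPKM in Zhuansihao (limma log2 fold change 1.19 ± 0.14 SE, adjusted p = 0.0156). The Zhuansihao libraries were close together in the second of these, with a mean of 282 ± 15.3 FPKM (SD, n = 3). Of the 6 called rises, HSP7C and these members had a Zhuansihao mean below the mean level at rank 100 (424 FPKM). Likewise 7 of the 11 called falls had a mean in D1 and D3 below it.

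In LOC8271821, LOC8258337 and LOC8278055 the rise was seen in D1 and D3 and not in D2. LOC8271821 had 949, 248 and 1073 FPKM in D1, D2 and D3, against 377, 569 and 343 FPKM in L1, L2 and L3, and D2 was the lowest of all. LOC8258337 had 1226, 485 and 1321 FPKM in the dwarf libraries, against 525, 631 and 613 FPKM in Zhuansihao, and D2 was again the lowest. LOC8278055, outside the rule for named genes and given because it completes the count, had 899, 499 and 856 FPKM in the dwarf libraries, against 496, 521 and 552 FPKM in Zhuansihao. Their limma log2 fold changes were 1.27, 1.11 and 0.75, with adjusted p-values of 0.0446, 0.0308 and 0.0478.

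LOC8281237 had the largest fall with D1 and D3 together. It had 346, 1117 and 310 FPKM in D1, D2 and D3, against 1450, 2201 and 1792 FPKM in L1, L2 and L3. All dwarf libraries were below all Zhuansihao libraries, although D2 was nearer to L1 than to D1. The limma log2 fold change was -2.45 ± 0.26 SE (adjusted p = 0.0133), and -1.86 with D2 added (adjusted p = 0.421). In RefSeq gene order it lies directly beside LOC8281236, the member with the widest spread, and L2, its own highest library, was nearly the lowest for that neighbour (58.0 FPKM).

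LOC8265897 was the other called member with all dwarf libraries below Zhuansihao. It had 264, 569 and 357 FPKM in D1, D2 and D3, against 908, 988 and 1032 FPKM in L1, L2 and L3 (limma log2 fold change -1.66 ± 0.21 SE, adjusted p = 0.0166). LOC8288079 had 97.4, 819 and 272 FPKM in the dwarf libraries, against 669, 833 and 1057 FPKM in Zhuansihao (limma log2 fold change -2.36 ± 0.48 SE, adjusted p = 0.0394). D1 and D3 differed widely from each other in it, and D2 was within the Zhuansihao range. The call for LOC8288079 ended when L1, L2 or L3 was left out (limma adjusted p = 0.0537 to 0.086) and without a filter on low values (0.0513). Its log2 fold change was -1.62 without D1, short of the fold threshold, and -3.09 without D3, a larger fall than that of LOC8281237 in the same setting (-2.37).

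LOC8286890 had the smallest adjusted p of the members. It had 208, 790 and 224 FPKM in D1, D2 and D3, against 804, 643 and 751 FPKM in L1, L2 and L3 (limma log2 fold change -1.75 ± 0.17 SE, adjusted p = 0.0114). LOC8266796 had 484, 1198 and 477 FPKM in the dwarf libraries, against 1946, 1031 and 1219 FPKM in Zhuansihao (limma log2 fold change -1.49 ± 0.33 SE, adjusted p = 0.0464). In both, D2 was within the Zhuansihao range.

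ACT (LOC8273907) had 340, 555 and 321 FPKM in D1, D2 and D3, against 571, 564 and 497 FPKM in L1, L2 and L3. D1 and D3 lay close together and D2 was within the Zhuansihao range. The actin gene that the study used as its real-time qPCR reference is a different one and is not a member. The mean was 330 ± 13.6 FPKM in D1 and D3 (SD, n = 2) and 544 ± 41.0 FPKM in Zhuansihao (SD, n = 3), and the limma log2 fold change was -0.72 ± 0.15 SE (adjusted p = 0.0430). The fall was also called after scaling to TPM, by median ratios and by quantiles. The call ended without a filter on low values (limma adjusted p = 0.0698) and when L1, L2 or L3 was left out (0.0555 to 0.0857).

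The other 4 falls, outside the rule for named genes and given because they complete the count, were LOC8268915, LOC8273545, LOC8289767 and LOC8276849. Their limma log2 fold changes lay between -1.47 and -0.95, with D1 and D3 between 179 and 687 FPKM against 580 to 1576 FPKM in Zhuansihao. D2 was within the Zhuansihao range in each. On the log2 scale, D2 was nearer to the Zhuansihao mean in all 11 called falls and in 4 of the 6 called rises, while on the linear scale D2 was nearer to D1 and D3 in LOC8265897.

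Of the 17 called members, 6 were also called whichever single Zhuansihao library was left out. These were HSP7C, LOC8266073 and LOC8271848 among the rises and LOC8281237, LOC8265897 and LOC8286890 among the falls. Each of the 6 was also called in all 9 other settings of filter, pseudocount, scaling and variance model. All 6 had a mean below the 424 FPKM of rank 100, in Zhuansihao for the rises and in D1 and D3 for the falls. Their membership thus needed higher levels in other libraries, and the choice by level favoured such members. The other 11 lost their call without at least 1 Zhuansihao library.

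**Figure D5:**
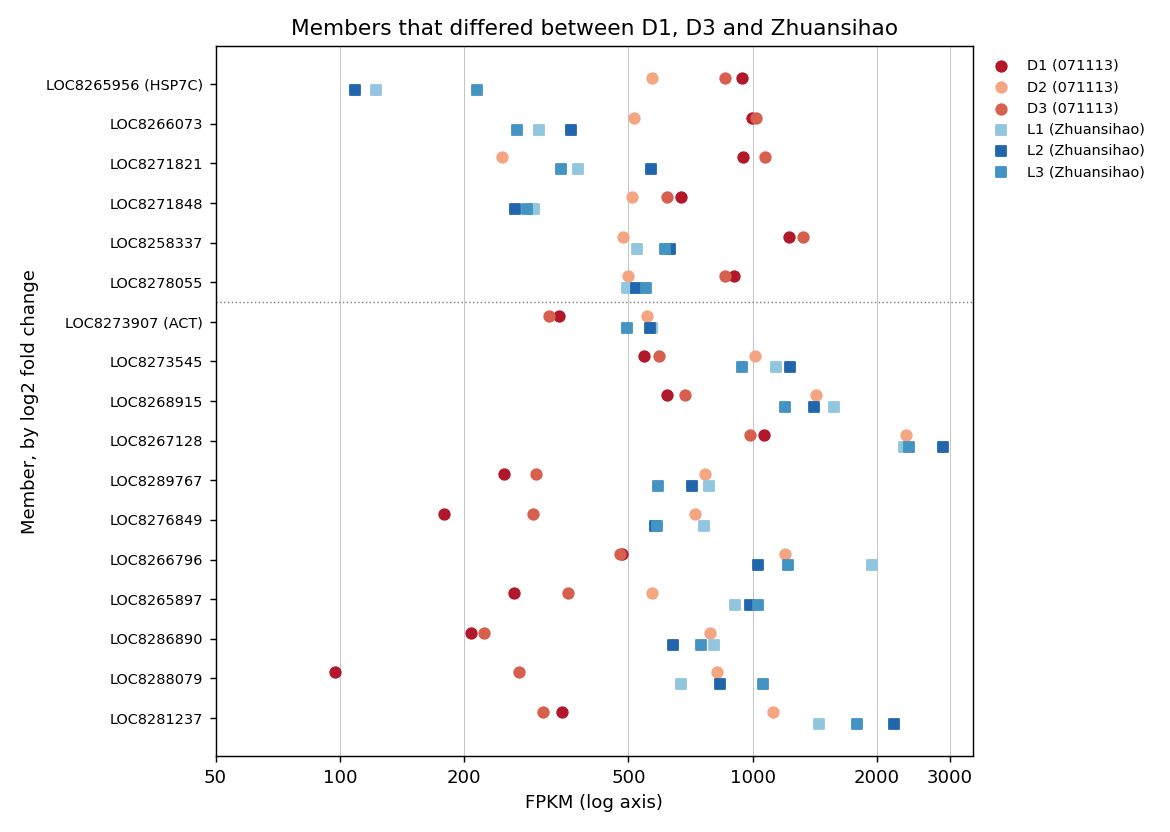
FPKM (log axis) of the 17 members called between D1 and D3 and Zhuansihao, 1 row each, with 1 point per library, circles for 071113 above squares for Zhuansihao. The 6 above the dotted line were higher and the 11 below it lower in D1 and D3, and on this log axis the D2 points lie nearer to the mean of the squares in 15 of 17 rows.

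The aquaporins did not pass the test. Pip2-1 (LOC8283688) had 738, 1167 and 932 FPKM in D1, D2 and D3, against 776, 518 and 430 FPKM in L1, L2 and L3. D2 was the highest library and only L1 reached into the dwarf range. The limma log2 fold change was 0.57 ± 0.31 SE (adjusted p = 0.243) with D1 and D3 and 0.74 (adjusted p = 0.562) with all 6. Tip1-1 (LOC8283972) had 416, 1046 and 393 FPKM in the dwarf libraries, against 645, 254 and 414 FPKM in Zhuansihao. D2 and L1 were its highest libraries and the log2 fold change was -0.01 ± 0.40 SE (limma adjusted p = 0.984) with D1 and D3 and 0.44 (adjusted p = 0.824) with all 6, and the sign also turned in 3 further settings.

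The 100 were not the same 100 in every library. Each library's own 100 highest rows held 76, 77 and 79 members in D1, D2 and D3, against 79, 80 and 76 in L1, L2 and L3. In all, 45 members were in the own top 100 of every library, and 8 in that of only 2 libraries. The own top 100 held 15.6%, 12.6% and 14.7% of D1, D2 and D3, against 13.2%, 15.1% and 14.1% of L1, L2 and L3. D2 and L1 thus also had the lowest shares when each library chose its own rows.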

How the data were processed

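Poly(A) mRNA of internodes was sequenced in 6 libraries, 3 of each variety by the genotype label. The authors computed FPKM per gene and library and deposited them with replicates not pooled. For the aligner, counter and build, the names were not given in the sources used here. Its table has 18875 rows, and each was kept as a row of its own. FPKM gives no read number, so no counting interval is given.

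The 100 rows with the highest mean FPKM over 6 libraries were taken as members, and their share is their FPKM over the summed FPKM of the library. Rows that reached 1 FPKM in 2 or more compared libraries entered limma 3.58.1 (R 4.3.3) as log2(FPKM + 1). Variances followed a trend in the mean, p-values were adjusted by Benjamini-Hochberg over all rows tested, and rows were called at an adjusted p under 0.05. A fold change on this scale understates the change of low rows, which the members are not. D1 and D3 were set against L1, L2 and L3, the libraries of the study's own test, with all 6 libraries beside it. Shares were compared by exact permutation over libraries. Python 3.11.15, pandas 2.3.3, numpy 2.4.6, scipy 1.17.1 and matplotlib 3.10.9 were used, and the limma script was tested on simulated data.

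Named by rule were the 10 highest members, those with a name in RefSeq or the study, those past both thresholds, the 5 largest called rises and falls, the 3 lowest and 3 highest coefficients of variation, and 2 rows on each side of the limit. The members, lists and tests were chosen with earlier results of these data known. The alternatives were other filters, pseudocounts, scalings, variance models and list sizes, a replicate block, and each library left out in turn. RefSeq (ASM1957865v1) matched 18432 rows and was used for names and neighbouring genes only, as the build of the files is not known. Fixed lists for ribosomal proteins and photosynthesis matched 0 members by name. Those for aquaporins and for tubulin and actin matched 2 and 1. The other lists by protein product could not be used, since the RefSeq table holds no products. No sequences were used here.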

Additional observations from a re-analysis of the deposited data

How the results depend on the processing

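The counts of members called between D1 and D3 and Zhuansihao (6 higher, 11 lower) stayed within 1.5 times under pseudocounts of 0.5 and 0.1, a mean filter of 5 FPKM, median-ratio scaling, quantile normalization, no trend and robust variances. Without a filter on low values they were 3 and 5, and scaled to TPM 7 were lower. With both thresholds they were 1 and 2. Among the 50 highest rows they were 2 and 7, and among the 200 highest 13 and 17. With all 6 libraries both counts were 0. Leaving out 1 Zhuansihao library gave 4 to 6 higher and 3 to 5 lower. Counts without D1 or without D3 are not given, as 1 dwarf library is then left. For all 6 libraries, where 0 were called either way, leaving out 1 library gave 0 to 6 higher and 0 to 11 lower, and only leaving out D2 gave any. The difference in share (-0.0855 points) became 0.809 points without D2 and ranged from -0.707 to 0.809 with 1 library left out. The log2 fold change of Tip1-1 (-0.01) reversed to 0.046 with median-ratio scaling and 0.44 with all 6 libraries, and ranged from -0.35 to 0.32 with 1 library left out, being positive without D3 or L1. The cause was not tested for any of these, beyond the fewer libraries or rows by construction. Replicate numbers were not used to pair the libraries, since no source used here states a pairing. Deviations of same-numbered libraries from their variety means correlated at -0.474, -0.553 and 0.330 across rows. This cannot settle whether they were paired, because deviations from a shared mean are tied to one another. A replicate block, with 1 residual degree of freedom, called 0 higher and 0 lower. Depth is known only relative to D1.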

Other observations

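Outside the 100, 89 further rows were in the own top 100 of at least 1 library, so 189 rows were in some library's list. These rows were singled out after their values were seen. LOC8274068 had the highest single value among them, with 110, 1064 and 197 FPKM in D1, D2 and D3, against 400, 96.4 and 127 FPKM in L1, L2 and L3. LOC8280479 had 11.9, 907 and 32.2 FPKM in the dwarf libraries, against 191, 0.888 and 10.6 FPKM in Zhuansihao, and was thus highest in D2 and next in L1. LOC8271221 had 144, 167 and 272 FPKM in the dwarf libraries, against 393, 860 and 588 FPKM in Zhuansihao, and was highest in L2. The own top 100 lists of D1 and D3 shared 88 rows and those of D2 and L1 shared 80, against 56 for D1 and D2.

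Among the members, 2 pairs were direct neighbours in RefSeq gene order. LOC8280736 had 1223, 626 and 968 FPKM in D1, D2 and D3, against 1125, 1206 and 856 FPKM in L1, L2 and L3. Its neighbour LOC8280735 had 759, 384 and 767 FPKM in the dwarf libraries, against 475, 666 and 496 FPKM in Zhuansihao. D2 was lowest in both. The other pair, LOC8281237 and LOC8281236, differed in which libraries were high.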
